A study of Mus musculus with 10 samples.

Results

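Tmem207, Lrrc66, Lrrc31, Malrd1, Tldc2, Egfl6 and Pcsk6 are 7 of the 30063 genes measured, and most of them have been little studied in the kidney. They were chosen by their measured fall between control and Lkb1 knockout kidneys on these same arrays: all 7 are among the 11 genes with the largest falls. Their group differences are therefore given as a description, with no test, and the tests below are on genes that are not members. The lists of those genes were drawn up with earlier results of these data known, so that their counts are not independent of them. RNA came from 10 whole kidneys of mice aged 5 weeks, 5 control and 5 knockout, each on its own array. The knockouts carried the floxed Lkb1 (Stk11) allele together with KspCre, a Cre recombinase driven by the Cdh16 promoter of kidney tubules. The controls were Lkb1flox/+ or Lkb1flox/flox littermates without Cre, so that both groups carried a floxed allele and the transgene marked the knockouts alone. The strain label reads C57Bl/6N, whereas the floxed line is described as of mixed background. The sample titles call the group a knockdown (STK11_KD) although the protocol describes a knockout. The series' design text names MDCK cells, a canine line, yet every sample is labelled as mouse kidney. The controls carry the condition label wildtype, whatever their floxed alleles. Each group came from 5 mice, and the labels used here do not give their sex.

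Lkb1, the kinase encoded by Stk11, activates AMPK and a group of related kinases, and is known as a regulator of metabolism and of epithelial polarity. The 7 genes encode proteins of different kinds. Pcsk6 is a proprotein convertase, an enzyme of the secretory pathway that cleaves growth factor and protease precursors. Egfl6 is a secreted matrix protein with EGF-like repeats and a MAM domain, and is a relative of nephronectin. Malrd1 is a large protein with MAM and LDL receptor class A repeats, known from the mouse intestine for its influence on FGF15 and bile acids. Tmem207 is a small transmembrane protein. Lrrc66 and Lrrc31 are named for leucine-rich repeats, short units that form protein-binding surfaces. Tldc2 has a TLDc domain, which it shares with Oxr1 and Ncoa7, and proteins with this domain bind the V-ATPase proton pump.

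The genes lie on 6 chromosomes (GRCm38, the mm10 build, RefSeq). Tmem207 is on chromosome 16 at 26503793 to 26526771, Lrrc66 on chromosome 5 at 73606642 to 73632421 and Lrrc31 on chromosome 3 at 30678554 to 30699843. Chromosome 2 holds both Malrd1, at 15526479 to 16255557, and Tldc2, at 157076627 to 157096948. Egfl6 is on chromosome X at 166523007 to 166585716 and Pcsk6 on chromosome 7 at 65862136 to 66050386. RefSeq promoter sequences (GRCm38.p6) were at hand for 6 of the 7, Malrd1 being the exception. The Tldc2 window is that of a transcript starting at 157087010, inside the gene span given above. The 250 bases before the first transcribed base are printed for 3 of them: Tmem207, which had the largest fall, Lrrc66, whose window lies between its own start and the end of the gene Sgcb, and Pcsk6, which has the highest GC content of the 6. Each reads 5′ to 3′ on the strand of its gene, with the motifs found in capitals. The windows are chr16:26526772-26527021 (minus strand), chr5:73632422-73632671 (minus strand) and chr7:65861886-65862135 (plus strand).
Tmem207: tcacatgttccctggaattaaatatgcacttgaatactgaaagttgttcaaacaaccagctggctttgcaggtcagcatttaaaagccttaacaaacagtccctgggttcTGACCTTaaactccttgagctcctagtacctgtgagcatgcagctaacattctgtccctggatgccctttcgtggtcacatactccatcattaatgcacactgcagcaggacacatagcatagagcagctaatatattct
Lrrc66: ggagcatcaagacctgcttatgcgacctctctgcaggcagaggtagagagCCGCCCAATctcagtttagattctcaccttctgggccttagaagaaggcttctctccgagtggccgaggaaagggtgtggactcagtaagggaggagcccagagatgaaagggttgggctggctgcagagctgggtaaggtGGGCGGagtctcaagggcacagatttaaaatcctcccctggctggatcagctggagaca
Pcsk6: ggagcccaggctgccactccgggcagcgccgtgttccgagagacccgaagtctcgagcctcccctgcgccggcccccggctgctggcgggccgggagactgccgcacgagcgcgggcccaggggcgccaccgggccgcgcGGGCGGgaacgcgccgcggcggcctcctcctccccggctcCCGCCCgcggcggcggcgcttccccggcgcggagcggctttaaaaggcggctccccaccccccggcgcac

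The capitals mark, on either strand, matches to the TATA box (TATAAA), the GC box (GGGCGG), the CCAAT box, a nuclear receptor half-site (AAGGTCA), an HNF1 half-site (GTTAAT), a forkhead motif (TGTTTAC) and a GATA motif (AGATAA). In the Tmem207 window the capitals are a nuclear receptor half-site on the opposite strand, 140 to 134 bases before the start. In the Lrrc66 window they are 2 GC boxes and a CCAAT box, the latter overlapping the GC box on the opposite strand. In the Pcsk6 window they are 2 GC boxes. No motif was held by all 6 windows. A GC box was present in 4 of the 6 (Tldc2, Lrrc66, Pcsk6 and Egfl6), against 32.7% of all 32851 promoter windows, and a CCAAT box in 3 of the 6 (Lrrc31, Lrrc66 and Egfl6), against 33.8%. The nuclear receptor half-site was found in the Tmem207 window alone (4.08% of all windows) and the HNF1 half-site in the Lrrc31 window alone (6.43%). The TATA box (12.4% of all windows), the forkhead motif (3.17%) and the GATA motif (9.99%) were in none of the 6. GC content ran from 43.6% with 1 CpG for Tmem207, through 52.8% for Lrrc31, 56.0% for Lrrc66, 56.8% for Tldc2 and 64.8% for Egfl6, to 81.2% with 40 CpGs for Pcsk6, around a median of 52.4% and 6 CpGs for all windows. The Pcsk6 window was richer in GC than 99.1% of all windows, the Tmem207 window than 20.1%. The 6 windows thus had neither a base composition nor any of these motifs in common.

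Stk11 is the check of the labels. Its level was lower in every knockout than in every control, at 9.43 ± 0.03 against 9.18 ± 0.10 (SD, n = 5 each; RMA log2 values, limma adjusted p = 0.00746, exact permutation p = 0.00794, the smallest possible for 5 against 5). Relative to the control mean, knockout 5 was the closest (-0.12 in log2 units) and knockout 3 the farthest (-0.37). Array values of different genes depend on their probes, so that levels are compared below between kidneys and not between genes. A whole kidney cannot tell fewer cells of a type apart from less RNA per cell.

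Tmem207 stood apart from the other 6 by the size of its difference. Controls 1 to 5 measured 8.50, 8.88, 8.91, 8.84 and 8.49 (log2), and knockouts 1 to 5 measured 6.66, 6.81, 6.22, 7.01 and 7.11. The lowest control was 1.38 log2 units above the highest knockout, the widest gap among the 7. The means were 8.73 ± 0.21 and 6.76 ± 0.35 (SD, n = 5 each), so that knockouts held 25.6% of the control level, and the control mean was 3.90-fold higher. Within the knockouts, knockout 3 held 17.6% of the control mean and knockout 5 held 32.7%. It ranked first among the falls of all 30063 genes.

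Lrrc66, a leucine-rich repeat gene, had the rank of 4 among the falls. Its controls measured 8.54, 8.35, 8.57, 8.80 and 8.53, and its knockouts 7.41, 7.49, 7.02, 7.10 and 7.94. The groups did not overlap, with 0.41 log2 units between them, and knockout 5 stood highest of its group. Group means of 8.56 ± 0.16 and 7.39 ± 0.37 (SD, n = 5 each) put its log2 difference at -1.17 (2.24-fold). Lrrc31, the other leucine-rich repeat gene, had a near-equal difference with far less spread among the knockouts. Its controls measured 7.91, 7.85, 7.91, 8.13 and 7.73, and its knockouts 6.73, 6.80, 6.69, 6.68 and 6.93. Its means were 7.91 ± 0.15 and 6.77 ± 0.11, a log2 difference of -1.14 (2.21-fold), and 0.80 log2 units separated the groups. The knockout SD of Lrrc66 was 2.29 times its control SD, that of Lrrc31 0.72 times.

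Tldc2, the TLDc-domain gene, had the narrowest separation. Controls 1 to 5 measured 9.24, 9.62, 9.64, 10.08 and 9.32, and knockouts 8.0, 8.51, 7.85, 8.77 and 9.13. Knockout 5 was only 0.11 log2 units below control 1, the lowest control, while knockout 3 stood at -1.73 relative to the control mean. Group means of 9.58 ± 0.33 and 8.45 ± 0.53 (SD, n = 5 each) put its log2 difference at -1.13 (2.18-fold), and the SD of each group was the largest among the 7 genes.

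Malrd1, the MAM and LDL receptor class A repeat gene, is the single member read by more than 1 row of the array, and both of its rows are annotated under older names of the gene (Gm13364 and Gm13318). The row named Gm13364 measured 7.31, 7.55, 7.39, 7.68 and 7.74 in controls and 6.01, 6.25, 5.75, 6.41 and 7.06 in knockouts. The row named Gm13318 measured 6.67, 6.92, 6.96, 6.97 and 6.88 in controls and 5.45, 5.85, 5.59, 6.04 and 6.35 in knockouts. In both rows the groups did not overlap and knockout 5 was the highest knockout, and the log2 differences were -1.23 and -1.02. Averaged, the gene measured 7.21 ± 0.13 in controls and 6.08 ± 0.42 in knockouts (SD, n = 5 each), a difference of -1.13 (2.19-fold). Malrd1 lay closest to the background of the array. Its knockout values exceeded on average 69.5% of the array's 5222 negative control probe sets and its control values 88.4%. For the other 6 genes the corresponding share was 82.2% to 96.4% in knockouts and 94.3% to 98.5% in controls.

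Egfl6 and Pcsk6, a matrix protein gene and a convertase gene, had uniform falls. Egfl6 measured 8.41, 8.33, 8.40, 8.56 and 8.04 in controls and 7.18, 7.53, 7.31, 7.22 and 7.14 in knockouts. The difference was -1.07 in log2 units (2.10-fold) between means of 8.35 ± 0.19 and 7.28 ± 0.15 (SD, n = 5 each). Pcsk6 measured 8.20, 8.17, 8.25, 8.23 and 7.88 in controls and 7.05, 7.05, 6.91, 7.19 and 7.04 in knockouts. Here it was -1.10 (2.14-fold), between means of 8.15 ± 0.15 and 7.05 ± 0.10. In both genes control 5 was the lowest control, and it still lay 0.51 and 0.69 log2 units above the highest knockout. Knockout 5, the highest knockout in 5 of the genes, was the lowest one for Egfl6.

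**Figure D1:**
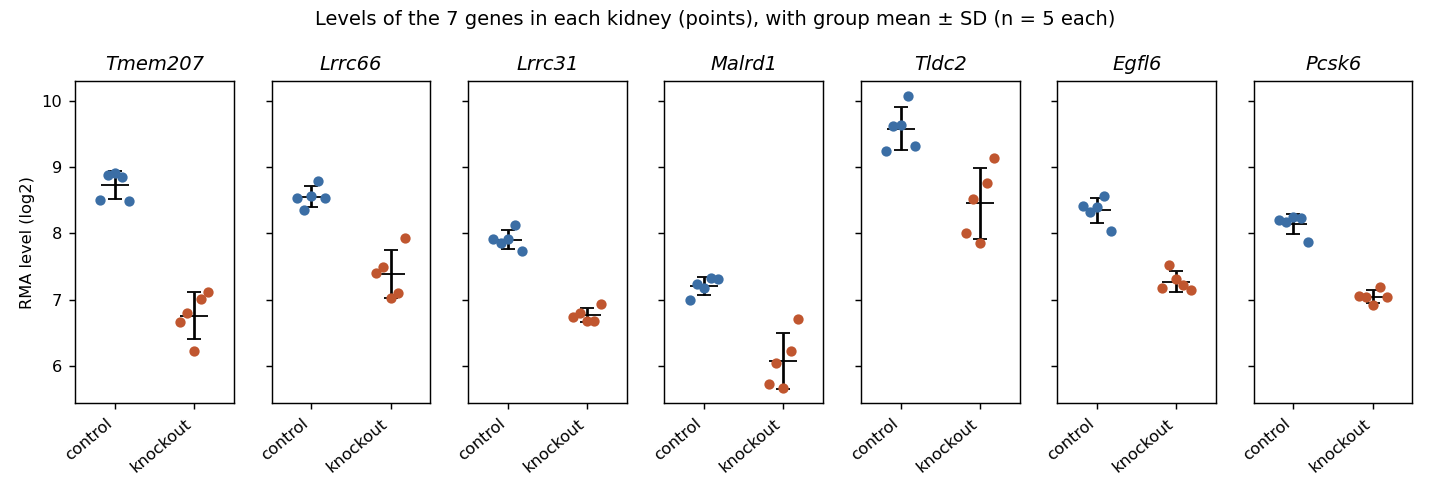
RMA level (log2, vertical axis) of the 7 genes in each of the 5 control (blue) and 5 knockout (red) kidneys; each point is a kidney, and bars show the group mean ± SD. In each gene all knockouts lie below all controls, with the widest gap in Tmem207 (1.38) and the narrowest in Tldc2 (0.11).

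The groups did not overlap in any of the 7 genes. Over all genes, 3.51% (1054 of 30063) had every knockout below every control, but the members were picked for their falls, so that nothing is read from this count. Their median log2 difference was -1.13, beside -0.03 over all genes. Apart from Tmem207, the differences spanned -1.17 to -1.07, and neighbours in that order were closer to each other than the SD of their groups. Of the 11 genes at or beyond the fall of Egfl6, the 4 that are not members were Gpx6, Wfdc15b, Slc26a4 and Ugt2b38. Just outside came Id4 (-1.01), Egf (-0.96) and Kcnt1 (-0.94), against Egfl6 (-1.07), Ugt2b38 (-1.08) and Pcsk6 (-1.10) just inside.

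The 7 genes did not vary alike from kidney to kidney. Knockout 5 had the highest knockout value for Tmem207, Lrrc66, Lrrc31, Malrd1 and Tldc2, and knockout 3 the lowest for Tmem207, Lrrc66, Malrd1, Tldc2 and Pcsk6. In Malrd1 knockout 5 kept 70.7% of the control mean against 34.6% in knockout 3. In Tldc2 the corresponding shares were 73.3% and 30.2%. By contrast the knockouts held between 42.6% and 51.4% of the control mean for Pcsk6, between 42.7% and 50.9% for Lrrc31, and between 43.4% and 56.6% for Egfl6. Without knockout 5 the log2 differences of Malrd1, Tldc2 and Lrrc66 were -1.29, -1.30 and -1.30, that of Tmem207 -2.05, that of Pcsk6 -1.10 and that of Egfl6 -1.04. The mean of the 7 genes relative to the control mean was -1.54 in knockout 3 and -0.92 in knockout 5, the kidneys in which Stk11 was also lowest and highest among the knockouts. In the controls, control 4 was the highest kidney in 5 of the genes and control 5 the lowest in 4, with the mean of the 7 genes at 0.21 and -0.17.

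**Figure D2:**
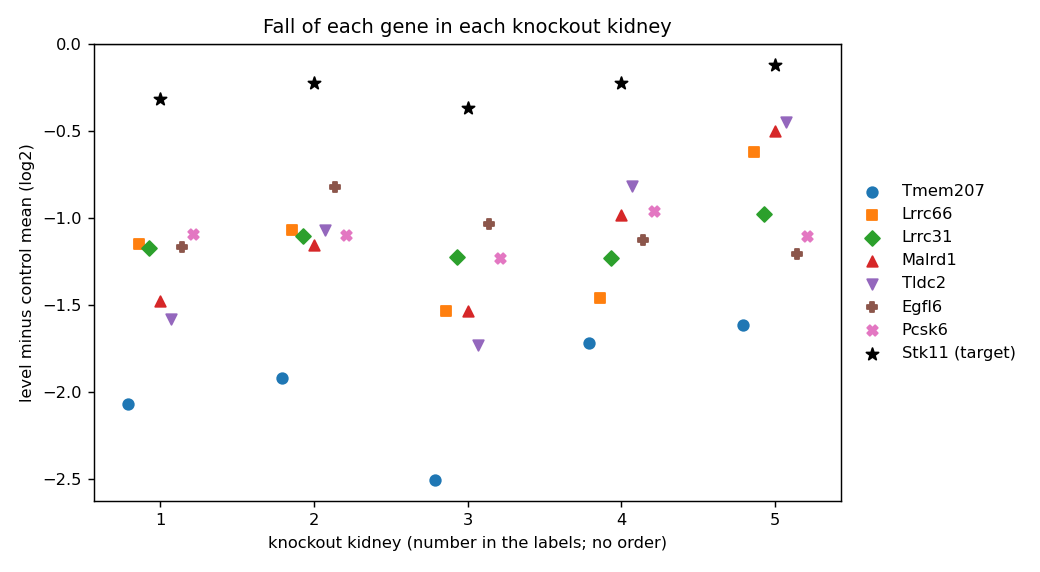
Level of each gene in each knockout kidney minus its control mean (log2, vertical axis) against the kidney's number in the labels; symbols stand for genes and stars for Stk11. Malrd1, Tldc2 and Lrrc66 come closest to the control level in knockout 5 (-0.50, -0.45 and -0.62), while Pcsk6 and Lrrc31 stay between -1.23 and -0.96 in every knockout.

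Likeness between genes was measured as the root mean square difference of control-relative log2 values over the 10 kidneys. Among the 21 pairs of members the closest was Lrrc31 with Pcsk6 (0.12), then Egfl6 with Pcsk6 (0.14) and Lrrc31 with Egfl6 (0.14). Over the knockouts alone, Malrd1 with Tldc2 (0.13) and Lrrc31 with Pcsk6 (0.14) were the closest pairs, with little between them. Tmem207 was far from every other member (0.62 to 0.70). These values are descriptive, and they mix the size of the fall with its pattern.

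By this measure a member can be near only to genes whose fall is of like size. The genes given below as nearest or runner-up, none of them members, ranked from 2 to 15 among all falls. No shared cell type is therefore read from the likeness. Among genes that are not members, Slc26a4, which encodes pendrin, an anion exchanger found in intercalated cells, was nearest to Malrd1 (0.14) and to Tldc2 (0.22). Slc26a4 measured 7.58, 8.30, 7.52, 8.13 and 8.65 in knockouts 1 to 5, highest in knockout 5 and lowest in knockout 3 as in Malrd1 and Tldc2. That order was not particular to these genes, since Tmem207, Lrrc66, Egf, Stk11 and several marker means given below also had it. Id4, an inhibitor of helix-loop-helix transcription factors, was nearest to Lrrc66 (0.23) and Lrrc31 (0.16). Pcsk6 was nearest to Aqp6, an aquaporin family gene of intercalated cells (0.16). Egfl6 was nearest to Kcnt1, a potassium channel gene (0.20), and Tmem207 to Wfdc15b (0.38), whose name marks a WAP-type four-disulfide core. The runners-up were Gpx6 for Tmem207 (0.58), Slc26a4 for Lrrc66 (0.25), Egf for Lrrc31 (0.19) and Id4 for Malrd1 (0.18), Tldc2 (0.28), Egfl6 (0.22) and Pcsk6 (0.17).

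The genes next to the members on the chromosome were tested, since the choice of members did not use them. Of 14 neighbours (the nearest protein-coding gene with a value on either side), 0 fell, 3 rose and 11 did not pass (limma, Benjamini-Hochberg over all genes, threshold 0.05), whereas 2.67% of all genes passed as lower and 5.37% as higher, 8.04% together. At an unadjusted p under 0.05 the counts were the same, 0 lower and 3 higher. The rises were Cldn16 beside Tmem207, Samhd1 beside Tldc2 and Tmsb4x beside Egfl6.

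Cldn16, a tight junction protein of the thick ascending limb, lies 21.0 kb from Tmem207. Its level was 7.75, 7.72, 7.61, 7.78 and 7.63 in controls and 8.15, 8.19, 8.01, 8.10 and 8.31 in knockouts, with no overlap. Its log2 difference of 0.45 (SE 0.06, limma adjusted p = 7.32e-04) ran opposite to that of Tmem207. Il1rap, an interleukin-1 receptor subunit on the other side at 54.7 kb, did not pass (-0.09, SE 0.05).

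Sgcb, a sarcoglycan gene read on the same strand, ends 0.328 kb before the start of Lrrc66, and its level was 7.99 ± 0.06 in controls and 7.97 ± 0.10 in knockouts (log2 difference -0.02, SE 0.05). On the other side of Lrrc66, Dcun1d4 differed by -0.05 (SE 0.04). Tldc2 overlaps Soga1 in the annotation (0.03, SE 0.06) and lies 0.586 kb from Samhd1, a dNTP hydrolase gene, which rose by 0.40 (SE 0.07, limma adjusted p = 0.00617). The array's strand assignment for such close genes was not tested.

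The neighbours of Malrd1, Nsun6 (-0.02, SE 0.05) and Plxdc2 (-0.07, SE 0.04), did not pass. Nor did those of Pcsk6, Tm2d3 (-0.08, SE 0.04) and Snrpa1 (-0.02, SE 0.05). Next to Egfl6, Tceanc did not pass (-0.11, SE 0.07) and Tmsb4x, an actin-binding thymosin gene 621 kb away, rose by 0.58 (SE 0.09, limma adjusted p = 0.00259). The neighbours of Lrrc31, Lrriq4 (-0.06, SE 0.05) and Samd7 (-0.01, SE 0.05), did not pass. They were dimmer than most negative control probe sets, exceeding 33.7% and 36.7% of them in controls. A fall in either gene could therefore have been missed here.

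**Figure D3:**
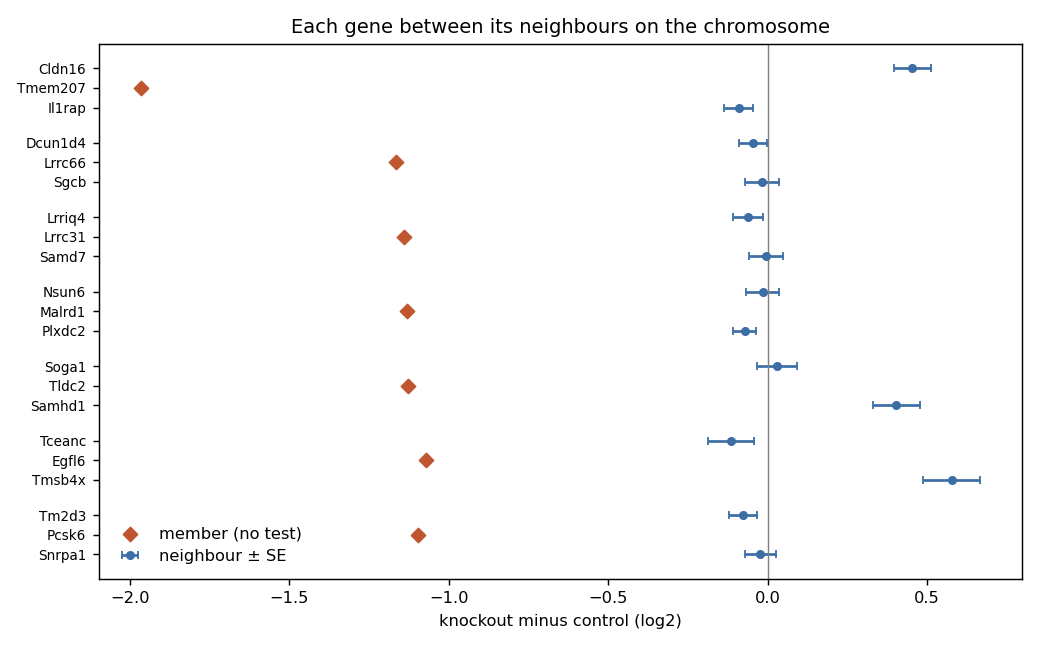
Knockout minus control difference (log2, horizontal axis) of each member (red diamonds, no test) and of its neighbour on either side (blue points ± SE of the limma fit). Every member is at -1.07 or lower, while 11 of the 14 neighbours lie between -0.11 and 0.03, and Cldn16, Samhd1 and Tmsb4x are higher.

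For relatives of Pcsk6, of 7 other proprotein convertase genes measured, 1 fell (14.3%, beside 2.67% of all genes), 0 rose and 6 did not pass, with a median log2 difference of -0.06. The one that fell was Pcsk7, from 8.25 ± 0.08 to 8.02 ± 0.07 (SD, n = 5 each; log2 difference -0.24, SE 0.05, limma adjusted p = 0.0118), and it lost its call with arrays centred on their medians (adjusted p = 0.053). Of 9 genes whose products are cleaved by Pcsk6 or related convertases, 3 rose (33.3%, beside 5.37% of all genes), 0 fell and 6 did not pass, with a median of 0.15. Without knockout 5, 5 of them passed. Mmp14, a membrane-bound matrix metalloproteinase, rose by 1.06 (SE 0.15, adjusted p = 0.00155), the aggrecanase gene Adamts5 by 0.50 (SE 0.10, adjusted p = 0.00814) and the growth factor gene Tgfb1 by 0.33 (SE 0.07, adjusted p = 0.0101). These rises stand beside those of the fibroblast and matrix markers given below, whose part in them was not tested.

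For Egfl6, 8 relatives, receptor subunits and matrix partners were measured, of which 1 rose, 1 fell and 6 did not pass, with a median of 0.04. That is 25% called in either direction, beside 8.04% of all genes. Frem1 and Fras1, related basement membrane proteins, went opposite ways, Frem1 at 0.71 (SE 0.13, limma adjusted p = 0.00559) and Fras1 at -0.35 (SE 0.07, adjusted p = 0.0120). Of 15 genes with a MAM domain, the domain of Egfl6 and Malrd1, 1 fell and 0 rose (6.67% called, near the 8.04% of all genes), with a median of -0.03. The one that fell was Mep1b, a meprin protease subunit (-0.26, SE 0.05, adjusted p = 0.00840), and without knockout 1 there were 2 calls. Of 8 genes of the FGF15 and bile acid axis, 1 fell and 0 rose (12.5% called, beside 8.04% of all genes; median -0.06). It was the receptor gene Fgfr4 (-0.22, SE 0.06, adjusted p = 0.0390), which lost its call on leaving out any kidney but knockout 5 (adjusted p up to 0.0919) and with arrays centred on their medians (adjusted p = 0.0814).

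Of the 3 other TLDc-domain genes measured, none passed by limma (0 of 3 in either direction, with 1 lower at an unadjusted p under 0.05), and the median was -0.12. Meak7 differed by -0.12 (SE 0.04, limma adjusted p = 0.0993) and Ncoa7 by -0.14 (SE 0.06, adjusted p = 0.218). Without knockout 5, Ncoa7 passed (-0.20, adjusted p = 0.0190). Subunits of the V-ATPase, the pump that TLDc proteins bind, were also counted. Of 24 measured, 8 fell, 0 rose and 16 did not pass, which is 33.3% lower beside 2.67% of all genes, with a median of -0.12. Atp6v1c2 (-0.71, SE 0.09), Atp6v0d2 (-0.54, SE 0.06), Atp6v1b1 (-0.49, SE 0.11) and Atp6v1g3 (-0.40, SE 0.11) had the largest falls among the 8 (limma adjusted p = 6.66e-04, 2.71e-04, 0.0180 and 0.0393). All 4 are also on the list of intercalated cell markers. The count of subunits that passed was 5 on leaving out any one of controls 2, 3 and 4 or knockouts 1, 2, 3 and 4, and also with arrays centred on their medians, and 13 after quantile normalisation. Atp6v1g3 lost its call in 8 of the 10 fits that left out a kidney.

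Genes that share a numbered name with members were counted too. Of 60 other Lrrc-numbered genes, 4 fell (6.67%, beside 2.67% of all genes), 1 rose and 55 did not pass, with a median of -0.03. In either direction 8.33% passed, near the 8.04% of all genes. Lrrc3 differed by -0.38 (SE 0.09) and Lrrc52 by -0.37 (SE 0.11), and both lost their calls in some of the fits that left out a kidney, 5 and 8 of 10. The count for this family was 1 without control 5, knockout 3 or knockout 4, 2 without control 3 or knockout 1, and 3 without control 1 or knockout 2. It was also 3 with arrays centred on their medians. Lrrc34, 30.7 kb from Lrrc31 on chromosome 3, passed (-0.33, SE 0.07, limma adjusted p = 0.00836), but its values exceeded only 40.7% of the negative control probe sets in controls and 33.2% in knockouts. Lrrc26 was at 0.30 (SE 0.08) and lost its call in 8 of the 10 fits.

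Of 224 other Tmem-numbered genes, 19 fell, 7 rose and 198 did not pass, so that 8.48% fell beside 2.67% of all genes, with a median of -0.05. Tmem86a, a lysoplasmalogenase gene, fell by 0.59 (SE 0.06, limma adjusted p = 2.49e-04), Tmem61 by 0.51 (SE 0.05, adjusted p = 2.49e-04) and Tmem171 by 0.49 (SE 0.11, adjusted p = 0.0135). Tmem45a was at 0.73 (SE 0.18), a call lost in 8 of the 10 fits that left out a kidney. Among those that fell, Tmem86a was the lowest, at -0.59 against -1.96 for Tmem207. The count of Tmem genes that passed was 26, and it was 41 without knockout 5. It was 15 without control 1, control 3, knockout 1 or knockout 2, 17 without control 5, 14 without knockout 3, and 15 with arrays centred on their medians.

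Markers of nephron segments and of other cells were set beside the members. Over all genes 2.67% passed as lower and 5.37% as higher, 8.04% together, and the counts below are to be read beside these shares. Of 12 intercalated cell markers 10 fell (median -0.52), of 12 thick ascending limb markers 9 fell and 1, Cldn16, rose (median -0.43), and of 11 distal convoluted and connecting tubule markers 7 fell (median -0.37). Of 15 proximal tubule markers 6 fell (median -0.11), and of 10 principal cell markers 1 fell and 2 rose (median 0.03). All 14 macrophage and mononuclear phagocyte markers rose (median 0.99), as did 10 of 11 fibroblast and matrix markers (median 1.28). Of 5 podocyte and 8 endothelium markers none passed by limma in either direction, with 0 and 1 at an unadjusted p under 0.05. The endothelial receptor gene Kdr passed after quantile normalisation (-0.21, adjusted p = 0.0385) and without knockout 2 (-0.21, adjusted p = 0.0405). Among the distal markers that fell, the largest differences were Slc26a4 (-1.13) and Aqp6 (-0.94) of intercalated cells, Egf (-0.96) and Ptger3 (-0.86) of the thick ascending limb and Slc16a7 (-0.82) of the distal convoluted and connecting tubule, against -1.07 or below for the members. In no marker list was a gene dimmer than 50% of the negative controls in control and knockout kidneys alike. A gene dim in controls alone is not excluded by this. Lum, a fibroblast and matrix marker that rose, exceeded 45.1% of the negative controls in controls and 77.3% in knockouts.

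The mean of the intercalated cell markers, relative to its control mean, ran from -0.07 to 0.09 in controls and from -0.72 to -0.33 in knockouts. The thick ascending limb mean was -0.12 to 0.04 in controls and -0.55 to -0.33 in knockouts, and the proximal tubule mean was -0.03 to 0.04 and -0.36 to -0.08. All 3 means were lowest in knockout 3 and highest in knockout 5, the kidneys with the lowest and highest mean of the 7 members. For the thick ascending limb, however, knockout 5 (-0.328) was barely above knockout 4 (-0.332) and knockout 2 (-0.345). The distal convoluted and connecting tubule mean was -0.09 to 0.05 in controls and -0.50 to -0.21 in knockouts, also highest in knockout 5 but lowest in knockout 1. The phagocyte mean was -0.11 to 0.14 in controls and 0.58 to 1.33 in knockouts, and the fibroblast and matrix mean -0.21 to 0.09 and 0.80 to 1.54. Both of the latter were highest in knockout 3 and lowest in knockout 5. Among the knockouts, the principal cell mean (-0.12 to 0.25) and the endothelium mean (-0.17 to 0.19) were lowest in knockout 5 and highest in knockout 2. The podocyte mean (-0.08 to 0.09) was lowest in knockout 4 and highest in knockout 5. The part of any of these cell types in the falls of the 7 genes was not tested.

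**Figure D4:**
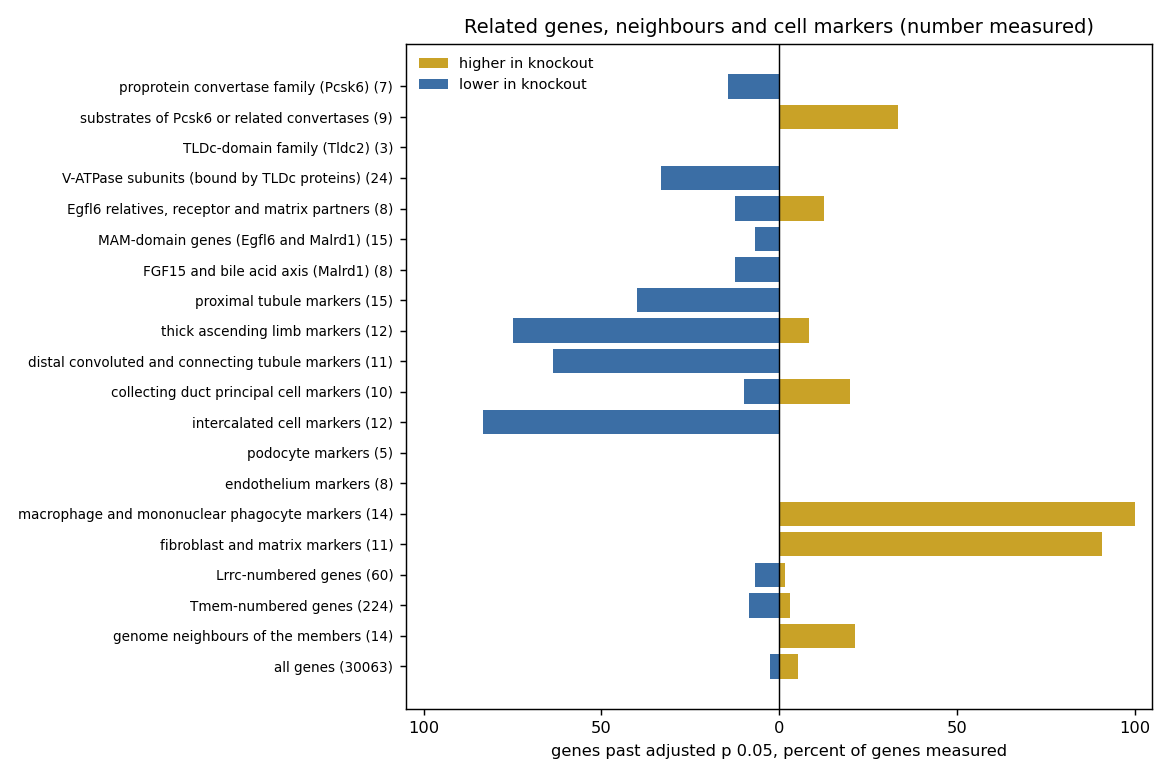
Share of the measured genes in each list past an adjusted p of 0.05 (limma), in percent, to the left where lower and to the right where higher in knockouts; the number measured is in brackets and the last bar gives all genes. Intercalated cell (83.3%) and thick ascending limb (75.0%) markers have the largest shares of falls, beside 2.67% of all genes.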

How the data were processed

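Gene expression was measured on 10 Affymetrix whole-transcript arrays from 500 ng of total RNA each. The deposited values are log2 expression values made by the authors with RMA on build mm10, per the submitters' processing notes; no version or filter is named there. The log2 scale was taken from the values (array medians 5.35 to 5.42). Arrays carry no read counts, so that their number limits the precision.

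The table held 72688 rows. Of these, 30604 had 1 gene symbol in the platform annotation, 2146 had several and 39938 none, and the last 2 kinds were left out. Symbols were updated to RefSeq through Entrez identifiers (827 rows) or a synonym (308 rows), and rows of a gene were averaged, giving 30063 genes. Knockout minus control was fitted over all genes with limma 3.58.1 in R 4.3.3 (lmFit, eBayes with trend, two-sided, Benjamini-Hochberg, threshold 0.05), with no covariate. The fit was tested on simulated data. Members and lists were chosen with earlier results of these data known. Named genes were, by rule, the members, all neighbours, up to 4 called genes a list by size of difference (with no call, 2 by smallest p), the genes around the smallest member fall and the 2 genes most like each member. Alternatives were 7 processing settings and leaving out each kidney. Plots used matplotlib 3.10.9.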

Additional observations from a re-analysis of the deposited data

Results flagged for a closer look

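Values far from the other 4 of their group were looked for in the members and the named genes, by the gap to the nearest value as a share of the group's range (above 0.71). Chance marks about 1 in 20 groups. Of 158 groups, 8 were marked. Among the members this was Pcsk6 in control 5 (7.88, the nearest control at 8.17), which made the control mean lower and not higher. The others were Aqp6 in knockout 3 (7.23, nearest 7.70), Slc7a13 in knockout 3 (10.28, nearest 10.53), Atp6v0d2 in control 3 (9.36, nearest 9.54) and Sgcb in control 5 (7.88, nearest 8.01). Knockout 5 was marked in 3 genes, Nphs1 (7.51, nearest 7.29), Ptpro (7.81, nearest 7.54) and Tmem45a (5.40, nearest 6.24).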

How the results depend on the processing

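The differences of the 7 members kept their direction and moved by less than the larger of the 2 group SDs under all 17 alternatives, with Tmem207 between -2.05 and -1.83, Tldc2 between -1.30 and -0.98 and the other 5 between -1.30 and -1.02. Over all genes 803 were lower and 1614 higher, and leaving out a kidney gave 435 to 1473 lower and 1089 to 1947 higher, the largest without knockout 5. Leaving out a kidney gave 3 to 5 calls among convertase substrates, 0 to 1 among TLDc genes, 5 to 9 among V-ATPase subunits, 1 to 2 among MAM genes, 0 to 1 in the bile acid axis, 0 to 1 among endothelium markers, 1 to 6 among Lrrc genes and 14 to 41 among Tmem genes. With arrays centred on their medians the calls were 0 for convertases, 5 for V-ATPase subunits, 0 for the bile acid axis, 3 for Lrrc and 15 for Tmem genes. Quantile normalisation gave 13 V-ATPase calls and 1 endothelium call. With the replicate number as a replicate block there were 0 calls in the bile acid axis (Fgfr4 adjusted p = 0.0629) and 5 among principal cell markers (3 without it). Same-numbered kidneys did not deviate together in every pair (correlations 0.25, 0.31, 0.10, -0.08 and 0.19 for numbers 1 to 5), so the numbers were not taken as pairing.

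Small uncalled differences changed sign. Quantile normalisation gave 0.012 for Nsun6 and 0.037 for Samd7. Leaving out a kidney gave -0.043 to 0.0093 for Nsun6, -0.031 to 0.026 for Samd7, -0.054 to 0.011 for Sgcb, -0.045 to 0.0022 for Snrpa1 and -0.0070 to 0.070 for Soga1. The cause was not tested. Signal near the negative controls limits Malrd1, Lrriq4, Samd7 and Lrrc34, and Lum in controls. It also limits other named genes, by the share of negative control probe sets exceeded. In controls this share was 54.9% for Tmem45a, 59.9% for Lrrc26, 61.0% for Postn, 63.0% for Il1rap and 68.1% for Nsun6. In knockouts it was 61.1% for Il1rap, 64.8% for Lrrc52, 67.1% for Lrrc26, 68.1% for Nsun6, 69.5% for Tmem61 and 69.9% for Kcnt1.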
